A study of Drosophila melanogaster with 2 samples.

Results

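Respiratory complex I, the NADH:ubiquinone oxidoreductase of the inner mitochondrial membrane, was examined through its nuclear genes in Drosophila melanogaster S2 cells. The genes were taken by name: a gene belonged to the set where its current symbol starts with ND- and a probe set on the array was assigned to it alone. This gave 32 genes, measured by 35 probe sets, out of 11983 genes that could be measured singly. The gene table lists 40 such symbols, and the other 8 (ND-23, ND-24, ND-30, ND-49, ND-49L, ND-AGGG, ND-B15 and ND-MWFE) were not analysed here, except that a probe set shared by ND-AGGG and CG40472 is described at the end.

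All values come from 1 group of 2 Affymetrix Drosophila Genome 2.0 arrays, replicates 1 and 2. Both hold S2 cells, an established fly line with features of macrophage-like blood cells, soaked in double-stranded RNA against green fluorescent protein (GFP) for 4 days, given a second round, and collected 4 days after it. Such dsRNA serves as a control with no target in the fly genome, and no untreated cells were analysed here, so no effect of the treatment can be read from these arrays. The labels call the treatment a duplicate without saying whether the cultures were separate, so the spread between the arrays may be technical. The labelled cell type was checked on 14 hemocyte markers. Of these 12 (85.7%) were above a background limit, defined below, against 49.5% of all genes other than receptors. Among them were Hml at a signal of 4509 ± 520 and srp at 8647 ± 142 (SD, n = 2). The marker eater was only 1.6 times over the limit on replicate 1, and Pxn was above it by 1 of 2 probe sets. NimC1 and gcm were below the limit at 112 ± 21.7 and 8.98 ± 0.729 (SD, n = 2).

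Complex I takes electrons from NADH in the mitochondrial matrix, passes them along a chain of iron-sulphur clusters to ubiquinone, and uses the energy to pump protons across the inner membrane. It is L-shaped, with a hydrophilic arm in the matrix that carries the redox centres and an arm in the membrane that carries the pumps. Core subunits, conserved from bacteria, do the catalysis. Accessory subunits, added in eukaryotes, surround them and are needed for assembly or stability. The core subunits of the membrane arm are encoded in mitochondrial DNA, and were not analysed here. Flies also carry extra copies of several subunit genes, named with a final L for "like", and duplicates of respiratory genes in Drosophila are known as a class for expression in the testis.

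A gene was called detected where a probe set of its own lay above a background limit on both arrays. The limit was the 95th percentile of the 125 probe sets of chemosensory (Or and Gr) receptor genes, a signal of 146 on replicate 1 and 136 on replicate 2. Of the 32 complex I genes, 26 (81.2%) were detected, against 49.5% of all 11871 genes other than receptors. The median signal was 2142 over the complex I genes and 146 over all genes. Probe sets differ in how strongly they respond, so the signals of different genes are given side by side and are not an order of transcript abundance.

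Detection followed the gene names closely. Of the 27 genes that are not paralogues 26 were detected, and ND-B8 was the exception. Of the 5 paralogues none was detected. On both arrays 23 of the 32 genes were over 10 times the limit, a multiple chosen after the values were seen, compared with 15.4% of all genes. The detected genes under that multiple were ND-18, ND-B16.6 and ND-B12, with lowest ratios to the limit of 7.94, 8.89 and 1.75.

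**Figure D1:**
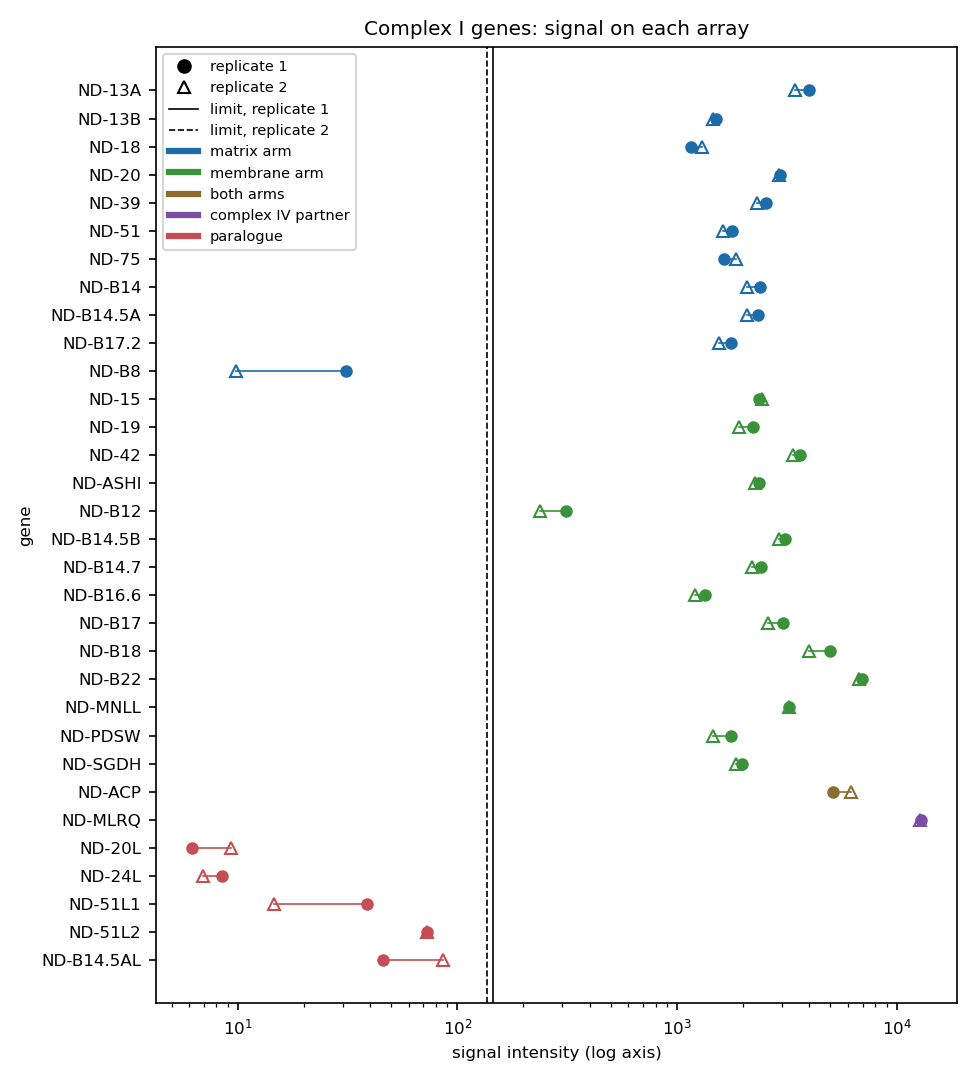
Signal of each complex I gene on replicate 1 (filled circles) and replicate 2 (open triangles), on a log axis, coloured by the place of its mammalian counterpart in the complex. The vertical lines are the background limits of 146 (replicate 1) and 136 (replicate 2); the 5 paralogues and ND-B8 lie left of them and the other 26 genes lie right of them.

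Of the 7 nuclear core subunit genes 3 had a probe set of their own, and all 3 were detected. ND-51, the fly counterpart of NDUFV1, encodes the subunit that binds NADH and the flavin where electrons enter, and its signals were 1775 and 1625 on replicates 1 and 2. ND-75, the counterpart of NDUFS1, encodes the large iron-sulphur subunit next to it and had signals of 1635 and 1866. ND-20, the counterpart of NDUFS7, encodes the subunit holding the last iron-sulphur cluster before ubiquinone, and its signals were 2939 and 2918. All 3 stood at least 11.2 times over the limit on both arrays. They lie along the electron path from its start to its end.

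Accessory subunits of the matrix arm were detected in 7 of 8 cases. ND-18 (NDUFS4), an accessory subunit that helps hold the NADH-binding module in place, had signals of 1160 on replicate 1 and 1301 on replicate 2. ND-13A (NDUFS6), a zinc-binding subunit, had 4012 and 3457, and ND-39 (NDUFA9), at the junction of the arms, had 2540 and 2304. These values were well above the limit on both arrays, and so were those of ND-13B (NDUFA5), ND-B14 (NDUFA6), ND-B14.5A (NDUFA7) and ND-B17.2 (NDUFA12), whose means ran from 1486 to 2229. ND-B14 belongs to the LYR-motif proteins, which bind the acyl carrier protein.

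ND-B8, the counterpart of NDUFA2, was the accessory subunit gene below the limit. NDUFA2 is a small protein with a thioredoxin-like fold on the NADH-binding module. The single probe set of ND-B8 gave 31.1 on replicate 1 and 9.81 on replicate 2, at most 0.213 times the limit. Both arrays were therefore in the background range, and the 3.17-fold difference between them was not a measured change. ND-B8 has 1 RefSeq transcript and the shortest annotated span of the 32 genes, 582 bp. Its protein-coding neighbours on both sides were detected, Secp43 at 449 and 439 and Gs1l at 555 and 559 on replicates 1 and 2. Whether the probe set fails to see the transcript or the transcript is scarce was not tested.

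In the membrane arm all 14 accessory subunit genes were detected. Subunits of the intermembrane-space face with twin cysteine motifs are encoded by ND-15 (NDUFS5), ND-19 (NDUFA8), ND-B18 (NDUFB7) and ND-PDSW (NDUFB10). Their signals on replicates 1 and 2 were 2369 and 2430 for ND-15, 2228 and 1912 for ND-19, 4970 and 4002 for ND-B18, and 1762 and 1463 for ND-PDSW. All 4 were at least 10.8 times over the limit. ND-B22 (NDUFB9), another LYR-motif subunit, was at 6955 and 6756, and ND-42 (NDUFA10), related to nucleoside kinases, was at 3646 and 3359. ND-B16.6 (NDUFA13), whose mammalian counterpart is also known as GRIM-19, had 1346 and 1206.

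The small membrane subunit genes of this arm included ND-MNLL (NDUFB1), at 3237 and 3230 on replicates 1 and 2, and ND-B12 (NDUFB3), at 312 and 238. ND-B12 was the detected gene nearest the limit, at 2.14 times the limit on replicate 1 and 1.75 times on replicate 2. Under the 99th percentile limit, 184 on replicate 1 and 279 on replicate 2, it was no longer detected, since replicate 2 fell below. The other 5 genes of the arm, ND-ASHI (NDUFB8), ND-B14.5B (NDUFC2), ND-B14.7 (NDUFA11), ND-B17 (NDUFB6) and ND-SGDH (NDUFB5), had means from 1920 to 3006, and each was at least 13.6 times over the limit.

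ND-ACP and ND-MLRQ stand apart in role. ND-ACP (NDUFAB1) is the mitochondrial acyl carrier protein, which sits in both arms and also serves fatty acid synthesis. Its 3 probe sets had means of 5655 ± 762, 5073 ± 220 and 4334 ± 120 (SD, n = 2), so all of them were above the limit. ND-MLRQ is the counterpart of NDUFA4, which in mammals has been reassigned from complex I to complex IV, and its signals were 12863 on replicate 1 and 12839 on replicate 2. ND-B17 was the other gene with several probe sets, at 2819 ± 326 and 2650 ± 38.8 (SD, n = 2). No complex I gene had probe sets that disagreed on detection.

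The 5 paralogues were ND-20L, ND-24L, ND-51L1, ND-51L2 and ND-B14.5AL. They are copies of core subunit genes, except that ND-B14.5AL is a copy of an accessory subunit gene. ND-20L had signals of 6.22 and 9.27 on replicates 1 and 2, and its parent ND-20 had 2939 and 2918. ND-51L1 had 38.9 and 14.7 and ND-51L2 had 72.9 and 72.7, and their parent ND-51 had 1775 and 1625. ND-B14.5AL had 46.0 and 85.7, and its parent ND-B14.5A had 2337 and 2093. Each measured parent was above the limit on both arrays and each copy was below it on both, at 0.632 times the limit or less. ND-24L had 8.51 and 6.97, and its parent ND-24 was not analysed here. Since 2 probe sets respond differently, no fold between a copy and its parent is given.

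Paralogues and other genes were then counted in the other respiratory complexes. Outside complex I, 48 genes of complexes II to V and cytochrome c were measured, and the division of these into paralogues (symbols ending in L or L and a digit) and other genes was made after the values were seen. For paralogues the counts were 0 of 5 detected in complex I and 2 of 17 in complexes II to V, where the 99th percentile limit gave 1 and the limit from control probe sets gave 4. For the other genes they were 26 of 27 in complex I and 30 of 31 in complexes II to V, or 29 of 30 without Sdhaf3, an assembly factor gene of complex II that its symbol brought into the list. The count of 30 rests on any probe set passing. RFeSP and COX7C were above the limit by 1 of 2 probe sets and COX7B by 2 of 3. They would be lost if every probe set had to pass, where complex I stayed at 26. No test of the difference between complexes was made, and the members were chosen with results known.

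Among the paralogues of the other complexes, none of 3 was detected in complex II, 1 of 3 in complex III with cytochrome c, none of 7 in complex IV and 1 of 4 in complex V. The detected pair was Cyt-c1L, a copy of the cytochrome c1 gene, at 1664 on replicate 1 and 1202 on replicate 2, and ATPsynepsilonL, a copy of an ATP synthase subunit gene, at 186 and 178. ATPsynepsilonL was 1.28 times over the limit on replicate 1, so it was close to the limit where Cyt-c1L was not. The gene below the limit among those that are not paralogues was UQCR-11, a complex III subunit gene, at 95.7 and 106.

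**Figure D2:**
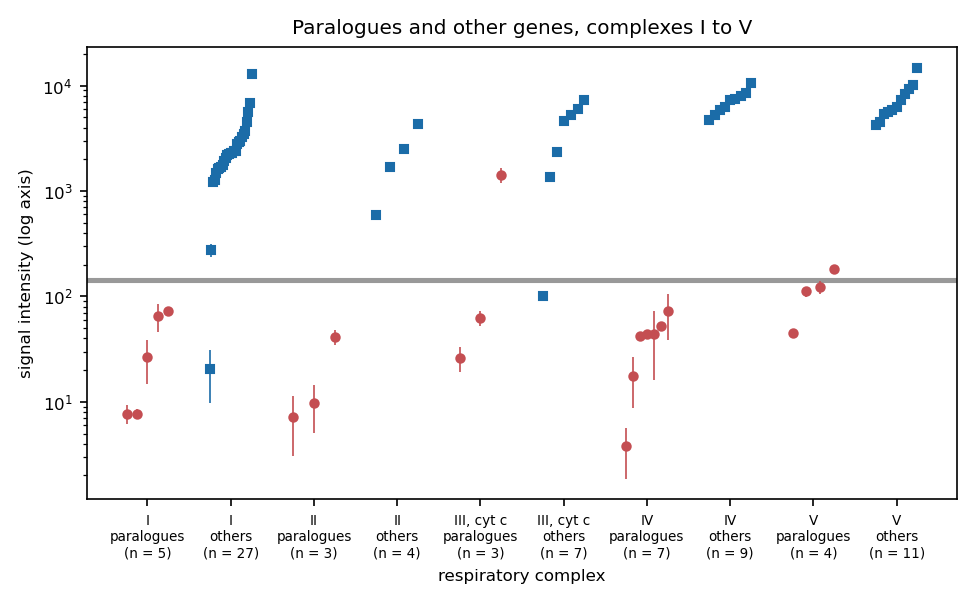
Mean signal of each gene over the 2 arrays (points, log axis), with vertical lines from the lower to the higher array, for paralogues (red circles) and other genes (blue squares) of complexes I to V; the complex II others include the assembly factor gene Sdhaf3. The grey band spans the 2 background limits; it separates the 5 complex I paralogues from 26 of the 27 other complex I genes, and 2 paralogues of complexes II to V lie above it.

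Testis markers were counted beside these paralogues, and 1 of 17 was detected. This was topi, a gene of the spermatocyte transcription program, at 151 on replicate 1 and 145 on replicate 2, which is 1.04 times the limit on replicate 1. The defining sperm genes dj, ProtA and ProtB had means of 9.59 ± 7.18, 11.5 ± 11.8 and 19.8 ± 6.78 (SD, n = 2). The summed signal of the 17 markers was 861 on replicate 1 and 742 on replicate 2, and that of the 5 complex I paralogues was 173 and 189. These sums are mostly background signal over unequal numbers of genes, so they are not levels to compare. Expression of the paralogues in testis was not tested. All 5 paralogues and 16 of the 17 markers were below the limit, as were 5990 of all 11871 genes other than receptors.

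Genes that serve complex I without being part of it were then counted from lists chosen by function. Of 9 assembly factor genes 7 were detected. CIA30, the counterpart of the assembly factor NDUFAF1, had signals of 1527 on replicate 1 and 1440 on replicate 2, and Nubpl, which supplies iron-sulphur clusters, had 2942 and 2711 by its brighter probe set while its other probe set was below the limit. ECSIT, at 414 and 402, and sicily, at 410 and 443, were also detected. CG5569, which the gene table also names dNDUFAF3, was at 684 and 575.

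CG11722, which the gene table also names dNDUFAF4, was not detected, at 137 on replicate 1 and 108 on replicate 2. It lay just under the limit, at 0.936 and 0.797 times. CG3270 was not detected at 64.4 and 42.0, while CG8067 and CG17726 were, with means of 706 ± 72.4 and 333 ± 15.9 (SD, n = 2).

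Ubiquinone is the electron acceptor of complex I, and all 7 measured Coq genes for its synthesis were detected, with means from 363 to 850. NADH is its donor, and all 6 measured genes of NADH-producing matrix enzymes were detected, including Idh3a, of the tricarboxylic acid cycle, at 2916 and 3013 on replicates 1 and 2. All 5 measured regulators of mitochondrial gene expression were detected. These included TFAM, which packages mitochondrial DNA, at 1284 and 1152, and PolrMT, the mitochondrial RNA polymerase gene, at 397 and 394. The others were the transcription factor gene mtTFB2 at 455 and 378, and the nuclear factors Ets97D at 987 and 1082 and ewg at 522 and 414. For ewg this was the brighter of 2 probe sets, and only 1 of them was above the limit. All 69 measured mitochondrial ribosomal protein genes, a list added after the values were seen, were detected as well.

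**Figure D3:**
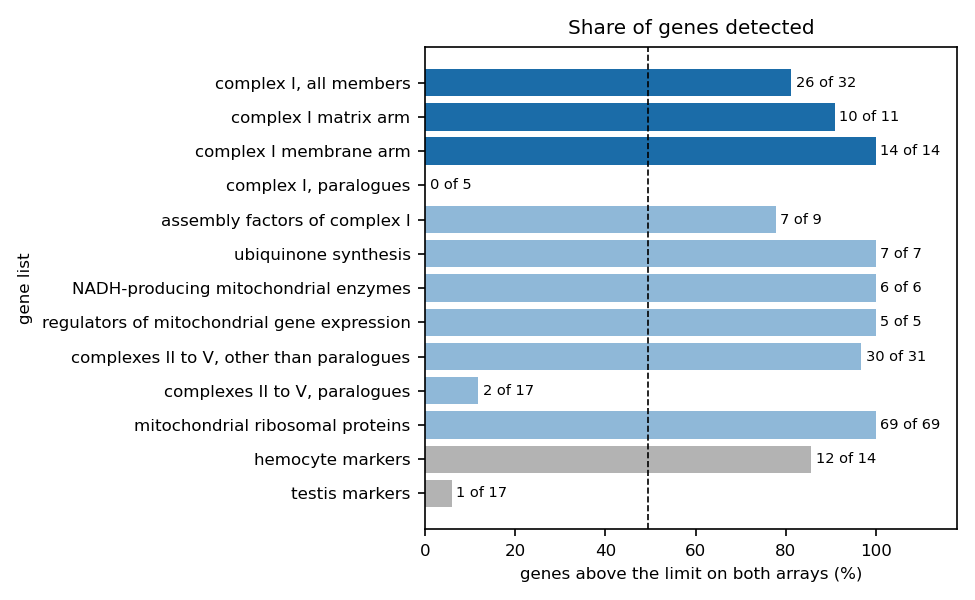
Share of measured genes above the limit on both arrays, in percent, for complex I and its groups (dark blue), related mitochondrial lists (light blue) and marker lists (grey), with the counts beside each bar. The dashed line is the 49.5% of all genes other than receptors; the bars of paralogues and testis markers end left of it.

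Features of the members' gene models were read from the release 6 fly assembly and used here without coordinates. The 27 genes that are not paralogues had a median annotated span of 1112 bp, compared with 2269 bp over 11862 other measured genes and 2700 bp over the detected ones among them. ND-15 was far from the rest with a span of 41305 bp and 10 RefSeq transcripts. A short span was not particular to complex I. In complexes II to V, the genes that are not paralogues spanned 397 bp (ox) to 5463 bp (UQCR-11). SdhD, at 1118 bp, was in the middle of their order. A single RefSeq transcript was listed for 3 of the 5 paralogues and 4 of the 27 other members. The share was 48.7% of other measured genes and 39.6% of the detected ones among them. The median number of transcripts was 2 in the 27 members and in both groups of other genes.

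By chromosome arm, 8 of the 27 lay on X (29.6%) and 9 on 2L (33.3%), where 15.7% and 18.5% of all measured genes lie. On 3R, which holds 25% of all measured genes, ND-42 alone was found. The paralogues lay on 2R, 3L and 3R, none of them on the arm of its parent. ND-20L, ND-24L and ND-B14.5AL have parents on X and lie on autosomes, and the copies of ND-51 lie on 2R while ND-51 lies on 2L. These are counts over few genes and were not tested.

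Detection of the genes next to the members was also counted. The nearest protein-coding genes on each side of the 26 detected members included 45 with a probe set of their own, and 32 of these (71.1%) were detected. For all detected genes the share was 67.6%. For the 6 members below the limit it was 6 of 10 neighbours, and for all genes below the limit it was 32.2%. ND-51L2 lay between Trpm, at 254 and 271 on replicates 1 and 2, and CG8152, at 542 and 608, both detected, while both neighbours of ND-24L were below the limit.

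The last comparison was between the duplicate arrays, which are 1 array a side and allow no test. Of the 26 detected complex I genes 22 had a lower signal on replicate 2, against 50.5% of all 5881 detected genes, and 3 of the 22, ND-20, ND-MNLL and ND-MLRQ, differed by under 1%. The median log2 difference, replicate 2 minus replicate 1, was -0.12 for the complex I genes, with an SD across genes of 0.15, and 0.00 for all detected genes, with an SD of 0.22. Among the 5190 detected genes whose mean signal lay in the range of the detected members, 51.1% were lower on replicate 2. In bulk RNA such as this, fewer cells of a type, less RNA per cell and a technical difference between the arrays cannot be told apart.

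None of the 26 detected complex I genes differed by over 2-fold, against 0.153% of all detected genes. The largest difference among them was that of ND-B12, with 238 on replicate 2 and 312 on replicate 1, a log2 difference of -0.39. It was the member outside the interval from -0.32 to 0.36 that holds all but the lowest and highest 5% of detected genes. ND-B18 was next, with 4002 on replicate 2 and 4970 on replicate 1 (-0.31 on the log2 scale), and ND-ACP, which was higher on replicate 2 (0.28), came after it. Then came ND-PDSW, with 1463 on replicate 2 and 1762 on replicate 1 (-0.27), and ND-B17, with 2589 and 3050 (-0.24). In the membrane arm 13 of 14 genes were lower on replicate 2, and in the matrix arm 8 of 10 detected genes were lower.

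The 4 genes higher on replicate 2 were ND-ACP, ND-75, ND-18 and ND-15. ND-ACP had 6194 on replicate 2 and 5117 on replicate 1 by its brightest probe set, a log2 difference of 0.28. Its other probe sets gave 0.09 and -0.06, so the direction was not shared by all 3. For ND-B17 the brighter probe set gave -0.24 and the other 0.03. In both genes the sign of the difference depended on the probe set.

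Other mitochondrial lists were read on the same scale. The median log2 difference over detected genes was -0.16 in complex II (3 of 4 lower on replicate 2), or -0.24 without Sdhaf3 (3 of 3), -0.01 in complex III with cytochrome c (4 of 7), 0.00 in complex IV (4 of 9) and -0.03 in complex V (9 of 12). It was -0.01 in the mitochondrial ribosomal protein genes (36 of 69), 0.05 in the NADH-producing enzymes (2 of 6) and 0.15 in the Coq genes (2 of 7). The regulators of mitochondrial gene expression had a median of -0.16 (4 of 5 lower) and the complex I assembly factors -0.04 (4 of 7). Hemocyte markers were lower on replicate 2 in 9 of 12 detected cases, with a median of -0.09 and a summed signal of 41686 on replicate 2 and 44166 on replicate 1. Their part in the complex I difference was not tested.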

How the data were processed

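Gene expression was measured on 2 arrays of a single group. The table the authors deposited holds linear intensities, 1 for each of 18952 probe sets on either array. Per the labels, values came from GeneChip Operating Software. How probes were summarised, scaled or filtered is not stated in the labels used here. Intensities were used as deposited, with array medians of 70.8 and 73.8. They are not counts, so the number of arrays limits the precision.

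The platform annotation named 13647 probe sets by 1 gene, 402 by several, which were set aside. Symbols were updated through gene identifiers in a RefSeq table, which held 11894 of 11983 genes. A gene's level is the mean ± SD of its brightest probe set. Signals under 1 were raised to 1 before log2. Tables were made with pandas 2.3.3. The detection rule and the array difference were checked on simulated signals planted far from the limit, so calls near the limit were not covered. The members, lists and settings were chosen with earlier results of these data known. Among the members, values were given for core subunits, paralogues with their parents, undetected genes and the 5 largest array differences, with the rest by role. Members whose probe sets disagree on detection were to be given too, and there were no such members. Sequence comparisons of proteins and promoters were planned and not run here, for want of a sequence table. The alternatives were other background limits, other rules over probe sets, single arrays, median and quantile scaling, and a floor of 16. No tests were made, since there is 1 group.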

Additional observations from a re-analysis of the deposited data

Results flagged for a closer look

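The probe set assigned to both ND-AGGG, the counterpart of the membrane-arm subunit NDUFB2, and CG40472 was outside the comparisons, because it measures 2 genes together. It gave 4261 on replicate 1 and 3838 on replicate 2, a mean of 4049 ± 299 (SD, n = 2), which is at least 28.3 times the limit set by receptor genes. The gene table also lists CG40472 as ND-AGGGL, so this signal does not separate a subunit gene from its paralogue. Its log2 difference, replicate 2 minus replicate 1, was -0.15.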

How the results depend on the processing

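The count of detected complex I genes was 26 of 32 with the 90th percentile limit, with the limit from 50 control probe sets (85.0 on replicate 1 and 70.3 on replicate 2), after median scaling and when every probe set of a gene, or their median, had to pass. It was 25 with the 99th percentile limit, where ND-B12 was lost. The share of all genes other than receptors that was detected moved with the limit. It was 44.2% with the 99th percentile limit, 52% with the 90th and 55.9% with the control limit. Single-array values were 26 to 26 for complex I, 0 to 0 for its paralogues, 2 to 3 for paralogues of complexes II to V and 57 to 58 of 75 related genes. The count of related genes moved more under other settings. It was 52 where every probe set had to pass, 56 with the 99th percentile limit and 61 with the control limit. Complex I paralogues stayed at 0 of 5 under all 10 other settings run. Paralogues of complexes II to V counted 1 of 17 with the 99th percentile limit and 4 with the control limit, by construction of stricter and looser limits. Probe sets ending in _s_at made up 17.1% of those of complex I genes, against 9.72% of all probe sets with 1 gene. ND-15, ND-19, ND-20, ND-B14.7, ND-MNLL and ND-PDSW were measured by such a probe set only. Without probe sets of that ending, an alternative added later, 20 of 26 complex I genes were detected, against 46.7% of all genes other than receptors. The median difference between the arrays ran from -0.18 after median scaling, which moves all detected genes to -0.06, to -0.11 with probe sets averaged, and 21 to 23 of 26 genes were lower on replicate 2 (17 of 20 without _s_at). No paired analysis was possible because there is 1 group.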
